A study of Mus musculus with 4 samples.

Results

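A list of 10 transcription factors that set or keep the identity of distal nephron segments was followed in kidney tubule fragments of mice on a low or a high magnesium diet. Members were all array probes annotated to these 10 gene symbols, with older aliases allowed, and all 10 genes were found, on 15 of 39429 probes. Tfap2a, Tfap2b and Tfcp2l1 are annotated under the older names Tcfap2a, Tcfap2b and Tcfcp2l1. Tfcp2l1, Tfap2a and Grhl2 had 2 probes each and Pax2 had 3.

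Low-diet mice ate food with 0.02% magnesium by weight and high-diet mice food with 0.48%, for 15 days. Mice of both diets carried the PV-eGFP transgene on a B6D2F2 background and were 6 to 8 weeks old. The transgene puts green fluorescent protein under the parvalbumin promoter, which in kidney is active in the distal convoluted tubule, so a sorter picked fragments by the activity of that promoter. Each sample was RNA of 4000 fragments, and each of 4 two-colour arrays compared low-diet with high-diet littermates. The pairs are named by the low-diet (L) and high-diet (H) samples they hold. Values by pair run in the order H1/L1, H7/L7, H3/L2, H8/L8, in which the first 2 pairs carried low-diet RNA in Cy5 and the last 2 in Cy3. The labels leave unstated whether a sample was 1 mouse or a pool, so the spread between these 4 pairs may be partly technical. The fit has a dye term, so p-values rest on the spread between pairs of the same dye orientation, with variances moderated over all probes. A difference between dye orientations does not enter that spread.

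The identity of a nephron segment is kept by small sets of transcription factors that act on shared genes. Pax2 and Pax8 are paired-box factors needed for the renal epithelium to form. In the distal nephron, AP-2 factors act in the distal convoluted tubule, grainyhead-related factors in distal tubule and collecting duct, and the forkhead factor Foxi1 in the intercalated cells that handle acid and base.

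The promoters of Tfcp2l1 and Tfap2b, the 2 members that rose, are shown because AP-2 factors are themselves on the list. Each line gives the 250 bases before an annotated transcript start from RefSeq, build GRCm38.p6, + strand, at chr1:118627695-118627944 for Tfcp2l1 and chr1:19211804-19212053 for Tfap2b. Capitals mark the AP-2 letters GCCNNNGGC and the TATA box letters TATAAA.
Tfcp2l1: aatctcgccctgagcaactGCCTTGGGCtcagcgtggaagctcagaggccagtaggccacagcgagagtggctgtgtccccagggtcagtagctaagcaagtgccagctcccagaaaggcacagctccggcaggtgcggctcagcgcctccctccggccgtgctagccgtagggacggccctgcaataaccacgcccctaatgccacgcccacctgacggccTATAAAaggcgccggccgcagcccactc
Tfap2b: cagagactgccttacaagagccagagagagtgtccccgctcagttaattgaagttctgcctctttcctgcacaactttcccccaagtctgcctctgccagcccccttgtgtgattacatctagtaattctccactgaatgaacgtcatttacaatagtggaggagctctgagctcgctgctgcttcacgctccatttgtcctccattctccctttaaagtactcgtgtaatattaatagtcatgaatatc
The Tfcp2l1 stretch held GCCTTGGGC from 231 to 223 bases and TATAAA from 28 to 23 bases before the start, and the Tfap2b stretch held neither. Its GC content was 65.2%, that of the Tfap2b stretch 46.4%, and the median over 32851 annotated starts was 52.4%.

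For the motif counts the window also took in 50 bases past the start, and 8 members matched the table by symbol, with 12 windows. GCCNNNGGC, which reads the same on both strands, lay in 4 of the 12 (Tfcp2l1, Foxi1, Emx1 and Pax2) and in 16.6% of all windows. TATAAA, searched on both strands, lay in 2 of the 12 (Tfcp2l1 and Prox1) and in 13.6% of all. Both strands held 0 matches in the 12 for a CP2 motif (CTGG, 6 bases of any kind, CTGG), for the forkhead letters TGTTTAC and for the grainyhead letters AACCGGTT, which lay in 3.44%, 3.65% and 0.146% of all windows. No match overlapped that of another motif. These are letters in a window and not binding sites.

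By their brightest probe, 2 of the 10 factors rose on the low-magnesium diet, 0 fell and 8 did not pass the threshold. Tfcp2l1 rose 1.44-fold and Tfap2b 1.36-fold. The threshold is an adjusted p under 0.05 in limma, a linear model with moderated variance, by Benjamini-Hochberg over all probes. It passed 5.82% of all probes, 7.82% of the 21713 named genes by brightest probe in either direction, and 4.88% as higher on the low diet. The median log2 ratio of low over high diet was 0.04 over the 10 members and 0.0017 over all named genes. Calls were concentrated among bright probes, at 18.5% of the brightest 25% and 0.107% of the dimmest 50%. The bright Tfcp2l1 probe stood at the 99.4th percentile of brightness and the Tfap2b probe at the 95.5th, and the brightest probes of the other 8 members between the 32.3 and the 81.3 percentile. Nothing particular to the list is therefore read from its count of 2.

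**Figure D1:**
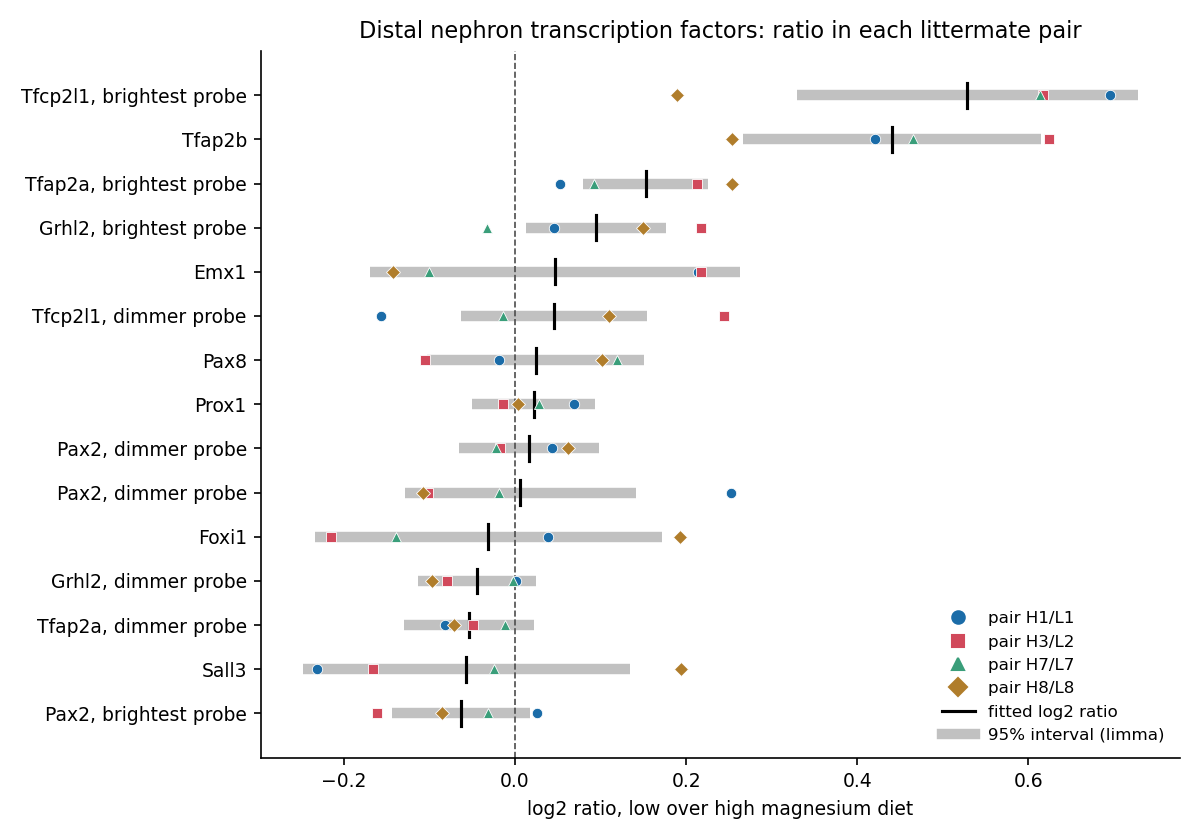
Log2 ratio of low over high magnesium diet (x axis) for the 15 probes of the 10 factors (rows). Points are the 4 littermate pairs, black ticks the fitted ratio and grey bars its 95% interval from limma; the bright Tfcp2l1 probe and the Tfap2b probe have all 4 points at 0.19 or above, whereas most other probes have points on both sides of 0.

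Tfcp2l1 encodes a CP2-family factor that the mouse collecting duct needs to form its principal and intercalated cells. The normalized level of its bright probe, in log2 intensity, was 13.91, 13.93, 13.84 and 14.01 in the low-diet samples L1, L7, L2 and L8. In the high-diet samples H1, H7, H3 and H8 it was 13.21, 13.32, 13.22 and 13.82. Every low-diet level lay above every high-diet level, as it did for 6.02% of all named genes, with H8 just below the lowest low-diet sample. The mean level was 13.92 ± 0.07 on the low diet and 13.39 ± 0.29 on the high diet (SD, n = 4 each).

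Within pairs the log2 ratio of Tfcp2l1 was 0.70 in H1/L1, 0.61 in H7/L7, 0.62 in H3/L2 and 0.19 in H8/L8. All were above 0, and 1 pair, H8/L8, stood below the other 3. The mean was 0.53 ± 0.23 (SD, n = 4), with a 95% interval of 0.33 to 0.73 and an adjusted p of 0.0340 in limma. A dimmer Tfcp2l1 probe had ratios of -0.16, -0.01, 0.24 and 0.11 in the same pairs, a mean of 0.05 ± 0.17 and an adjusted p of 0.620 in limma. Its net intensity, the signal minus local background, was 32 to 60, while that of the bright probe was 7260 to 23076, so the rise of Tfcp2l1 rests on the bright probe.

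Tfap2b encodes AP-2 beta, whose loss in mice causes cysts and defects of the distal tubule, and was read by 1 probe. Its level was 11.18, 11.40, 11.22 and 11.39 in L1, L7, L2 and L8, and 10.76, 10.94, 10.59 and 11.13 in H1, H7, H3 and H8. Again the diets did not overlap, and H8 was the highest high-diet sample. The ratio was 0.42 in H1/L1, 0.47 in H7/L7, 0.62 in H3/L2 and 0.25 in H8/L8, above 0 in 4 of 4 pairs. The mean was 0.44 ± 0.15 (SD, n = 4), with a 95% interval of 0.27 to 0.62 and an adjusted p of 0.0368 in limma. The component of the ratio that followed the dye was 0.0019 for Tfap2b and 0.13 for the bright Tfcp2l1 probe, and no member probe had a dye component past the threshold (lowest adjusted p 0.244).

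Both genes kept their direction in all 12 alternative settings, but both calls were lost in 3 of them. Without H1/L1 the adjusted p in limma was 0.121 for Tfcp2l1 and 0.120 for Tfap2b, without H7/L7 it was 0.0853 and 0.101, and with plain background subtraction 0.0642 and 0.0771. In the authors' deposited table, whose log2 ratio runs high over low diet, Tfcp2l1 stood at -0.59 with a p of 0.215 and Tfap2b at -0.46 with a p of 0.617. The sizes there are close to these with the sign turned, and neither gene passed 0.05 in the authors' deposited table.

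**Figure D2:**
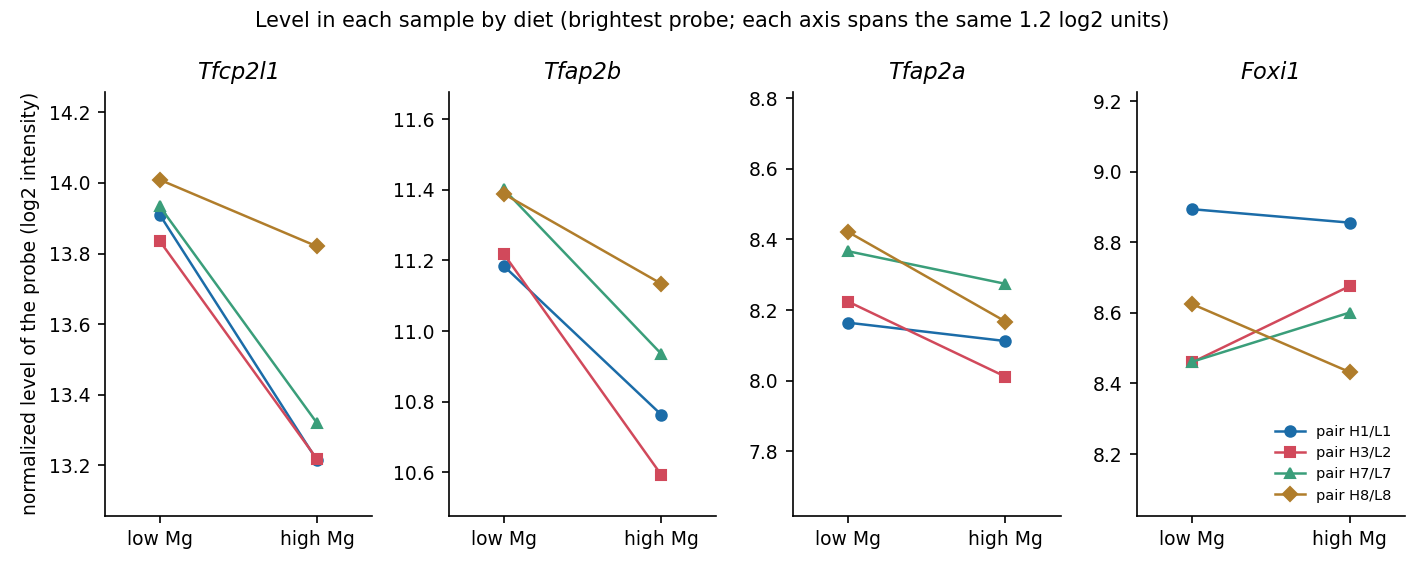
Normalized level (log2 intensity, y axis) of the brightest probe of Tfcp2l1, Tfap2b, Tfap2a and Foxi1 on the low (left) and high (right) magnesium diet. Lines join the samples of a pair; every line of Tfcp2l1, Tfap2b and Tfap2a is lower at the high-diet end, pair H8/L8 is the flattest for Tfcp2l1, and lines of Foxi1 run both ways.

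In the sorted fragments, markers of the distal convoluted tubule were themselves higher on the low diet, and all 10 of them were above background in all 8 samples. Of the 10, 7 rose and 0 fell, with a median log2 ratio of 0.71. An unadjusted p under 0.05 in limma was reached by 8, among them Klhl3, which was lower at -0.18. Of all 21713 named genes, 5804 reached it. Dimmer probes of Kl (-0.05) and Wnk1 (0.11 and 0.06) did not pass, while those of Pvalb (1.41) and Calb1 (1.26) did. Egf had 1 saturated low-diet spot and ratios of 1.53, 1.02, 0.14 and 0.16, and Wnk1 had 1.25, 0.84, 0.43 and 0.15. Both genes had larger ratios in the pairs with low-diet RNA in Cy5, and neither passed with no dye term. Pvalb, the gene whose promoter drives the reporter, had a mean ratio of 2.27 ± 0.40, whereas Slc12a3, the sodium chloride cotransporter that defines the segment, had 0.13 ± 0.27 (SD, n = 4; adjusted p = 0.467). Their summed level, in log2, ran from 16.49 to 16.59 across low-diet samples and from 15.04 to 15.96 across high-diet samples. Pair by pair the marker median was 1.00, 0.94, 0.58 and 0.29, larger in the pairs with low-diet RNA in Cy5. H8/L8 was the lowest pair for these markers, for Tfcp2l1 and for Tfap2b alike. The highest pair was H1/L1 for the markers and Tfcp2l1, but H3/L2 for Tfap2b. In bulk samples more cells of a type and more RNA per cell cannot be told apart, and the part of these markers in the 2 rises was not tested.

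Markers of other tubule cells moved as well. Of 15 proximal tubule markers, Kap (-1.22) and Slc5a2 (-0.88) fell and Ggt1 rose by 0.22, and 9 had an unadjusted p under 0.05 in limma. Kap had -2.07, -1.54, -0.88 and -0.41, with larger falls where low-diet RNA was in Cy5. Ggt1 had 0.03, 0.11, 0.38 and 0.35, with larger rises where it was in Cy3. With no dye term Kap, Slc5a2 and Ggt1 did not pass. The median ratio of the 15 was -0.57, and the summed level was 11.94 to 12.26 on the low diet and 12.22 to 13.35 on the high diet. Of 9 thick ascending limb markers, Umod (1.46) and Kcnj1 (0.66) rose and Ptger3 (-1.95) fell, and 6 had an unadjusted p under 0.05 in limma. Kcnj1 had 0.97, 1.31, 0.23 and 0.13, larger with low-diet RNA in Cy5, and did not pass with no dye term. The median ratio of the 9 was 0.01. The summed level, which the brightest markers dominate, was 16.12 to 16.54 on the low diet and 14.90 to 15.68 on the high diet. Of 7 principal cell markers, Avpr2 fell, at -0.38 (adjusted p = 0.0200 in limma), with 3 saturated spots, a ratio above 0 in 2 pairs and below it in the 2 with low-diet RNA in Cy3. Its dimmer probe stood at 0.03 (adjusted p = 0.817 in limma). The 7 connecting tubule markers had 0 calls in limma and 2 at an unadjusted p under 0.05, both lower on the low diet. S100g stood at -1.07 ± 1.11 (SD, n = 4; adjusted p = 0.0607 in limma), with ratios of -0.26, -0.17, -2.55 and -1.30. All were below 0, but the larger falls were in the pairs with low-diet RNA in Cy3. S100g passed in some alternatives, such as median centring (adjusted p = 0.0198 in limma). Scnn1a stood at -0.16, with pairs on both sides of 0. Podocyte, endothelium and stroma markers (4, 7 and 6 measured) had 0 calls and 1, 2 and 1 at an unadjusted p under 0.05 in limma. Leukocyte, red blood cell and muscle markers had 0 at either. Of the 2 measured red blood cell markers, 0 were above background in all samples. Beside these counts, 5804 of all 21713 named genes had an unadjusted p under 0.05 in limma. The part of the marker lists in the rises was not tested.

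Tfap2a encodes AP-2 alpha, the paralogue of Tfap2b, which binds the same GC-rich letters. Its brighter probe had levels of 8.16, 8.37, 8.22 and 8.42 in L1, L7, L2 and L8, and of 8.11, 8.27, 8.01 and 8.17 in H1, H7, H3 and H8. The diets overlapped, but the low-diet sample was the higher in 4 of 4 pairs. The ratios were 0.05, 0.09, 0.21 and 0.25, with a mean of 0.15 ± 0.10 (SD, n = 4; adjusted p = 0.0542 in limma), just short of the threshold. The larger ratios were those with low-diet RNA in Cy3, and the dye component was -0.08. In the authors' processed values the same pairs stood at 0.16, 0.15, 0.16 and 0.16, without this split by dye.

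A dimmer Tfap2a probe had ratios of -0.08, -0.01, -0.05 and -0.07, a mean of -0.05 ± 0.03 and an adjusted p of 0.389, and in L8 it was not above background. The 2 probes of Tfap2a thus lay on opposite sides of 0 in every pair. With the authors' processed values the brighter probe had a mean of 0.16 and passed (adjusted p = 0.0456), and it passed in 0 of the other 11 alternatives. By brightest probe, 3 of the 10 members had the same sign in all 4 pairs (Tfcp2l1, Tfap2b and Tfap2a), as had 27.6% of all named genes.

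None of the other AP-2 genes passed in limma. Tfap2c had a mean log2 ratio of 0.02, Tfap2d of -0.06 and Tfap2e of -0.02 (adjusted p 0.739, 0.381 and 0.780). Tfap2e was above background in 2 samples of each diet and is at the limit of detection. Of the relatives of Tfcp2l1, Tfcp2 had ratios of -0.0074, 0.09, -0.28 and -0.32, which differed by dye orientation (mean -0.13 ± 0.20, adjusted p = 0.0989), and Ubp1 a mean of -0.01 ± 0.05.

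Grhl2 encodes a grainyhead-like factor that maintains epithelial junctions and the lumen of the collecting duct. Its brighter probe had levels of 7.25, 7.24, 7.45 and 7.47 in L1, L7, L2 and L8, and of 7.20, 7.27, 7.23 and 7.32 in H1, H7, H3 and H8. The ratios were 0.05, -0.03, 0.22 and 0.15, with a mean of 0.09 ± 0.11 (SD, n = 4; adjusted p = 0.177 in limma), so 3 of 4 pairs were above 0. Its dimmer probe, above background in 2 samples of each diet, had a mean of -0.04 ± 0.05.

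The relative Grhl1, which is not a member, did rise, at 0.32 ± 0.30 (adjusted p = 0.0402 in limma). Its ratios were -0.02, 0.17, 0.47 and 0.66, so 3 of 4 pairs were above 0 and the pairs with low-diet RNA in Cy3 were higher. Grhl3 had a mean of 0.06 ± 0.18 (adjusted p = 0.597 in limma).

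Foxi1 encodes the forkhead factor that switches on proton pump subunits and anion exchangers in intercalated cells. Its level was 8.89, 8.46, 8.46 and 8.62 in L1, L7, L2 and L8, and 8.86, 8.60, 8.68 and 8.43 in H1, H7, H3 and H8. The diets overlapped almost entirely. The ratios were 0.04, -0.14, -0.22 and 0.19, above 0 in 2 pairs and below it in 2, with a mean of -0.03 ± 0.18 (SD, n = 4; adjusted p = 0.880 in limma) and a 95% interval of -0.23 to 0.17. Its relative Foxi2 had a mean of -0.09 (adjusted p = 0.175).

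The 16 intercalated cell markers, all above background in all 8 samples, had 0 calls in limma, 3 at an unadjusted p under 0.05 and a median log2 ratio of 0.08. Those 3 were lower on the low diet: Atp6v0a4 (-0.39), Oxgr1 (-0.20) and Rhcg (-0.18). Of all 21713 named genes, 5804 had an unadjusted p under 0.05 in limma. The medians of the 16 markers by pair were 0.04, -0.05, -0.15 and 0.40. The 4 pairs ranked in the same order for Foxi1, a description over 4 pairs that share arrays. Slc26a4, the anion exchanger of base-secreting intercalated cells, reached 2.17 in H8/L8 and -0.66 in H7/L7. Atp6v1b1, a proton pump subunit, had a mean of 0.03 ± 0.05. The summed marker level was 13.22 to 13.68 on the low diet and 13.29 to 13.48 on the high diet.

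Pax2 did not pass by any of its 3 probes. The brightest had levels of 7.57, 7.50, 7.38 and 7.54 in L1, L7, L2 and L8, and of 7.54, 7.54, 7.54 and 7.62 in H1, H7, H3 and H8. Its ratios were 0.03, -0.03, -0.16 and -0.09, with a mean of -0.06 ± 0.08 (SD, n = 4; adjusted p = 0.339 in limma). The next probe had a mean of 0.0060 ± 0.17, with 0.25 in H1/L1 and values below 0 in the other 3 pairs. The dimmest had a mean of 0.02 ± 0.04 and was above background in 1 low-diet and 3 high-diet samples.

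Pax8 was read by 1 probe, at 7.77, 7.81, 7.69 and 7.84 in L1, L7, L2 and L8 and at 7.79, 7.69, 7.80 and 7.74 in H1, H7, H3 and H8. The diets overlapped, and the ratios of -0.02, 0.12, -0.11 and 0.10 lay on both sides of 0. The mean was 0.02 ± 0.11 (SD, n = 4; adjusted p = 0.845 in limma), with a 95% interval of -0.10 to 0.15.

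Emx1 encodes a homeobox factor. Its level was 8.44, 8.21, 8.32 and 8.17 in L1, L7, L2 and L8, and 8.23, 8.31, 8.10 and 8.32 in H1, H7, H3 and H8. The ratios were 0.21, -0.10, 0.22 and -0.14, so 2 pairs stood on each side of 0 and each dye orientation held 1 of either sign. The mean was 0.05 ± 0.20 (SD, n = 4; adjusted p = 0.821 in limma). Its relative Emx2, which the ureteric bud needs, had a mean of 0.17 ± 0.11, above 0 in 4 of 4 pairs, and missed the threshold (adjusted p = 0.0531 in limma).

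Sall3 encodes a spalt-family zinc finger factor. Its level was 6.58, 6.64, 6.57 and 6.73 in L1, L7, L2 and L8, and 6.81, 6.67, 6.74 and 6.53 in H1, H7, H3 and H8. The ratios were -0.23, -0.02, -0.17 and 0.19, with H8/L8 alone above 0 and a mean of -0.06 ± 0.19 (SD, n = 4; adjusted p = 0.743 in limma). The probe was dim. Its net intensity was 54.9 in L8, where the background limit was 52.0, and 18.8 in L2, where it was 15.98. The H8/L8 ratio thus rests on a spot barely above the limit. Among the relatives of Sall3, Sall1, needed for the kidney to develop, rose by 0.50 ± 0.16 (adjusted p = 0.0258). Sall4 fell by its brightest probe, at -0.26 ± 0.16 and below 0 in 4 of 4 pairs, while its 2 dimmer probes, at -0.05 and -0.03, did not pass.

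Prox1 encodes a homeobox factor best known for lymphatic endothelium. Its level was 6.91, 6.85, 6.80 and 6.76 in L1, L7, L2 and L8, and 6.84, 6.82, 6.82 and 6.76 in H1, H7, H3 and H8. The ratios were 0.07, 0.03, -0.01 and 0.0038, with a mean of 0.02 ± 0.04 (SD, n = 4; adjusted p = 0.736 in limma), the smallest spread among the brightest probes of the 10. Its net intensity was 27 to 66, and in L8 it was 56 where the background limit of that channel was 52.0. The background correction adds an offset of 50 to every intensity, which draws ratios of dim probes towards 0, so the small spread at this brightness is no measure of constancy.

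For the 6 members with an unadjusted p over 0.05 by their brightest probe (Emx1, Foxi1, Pax2, Pax8, Prox1 and Sall3), the 95% intervals held 0 and differed in width. The narrowest, for Prox1, ran from -0.05 to 0.09, and the widest, for Emx1, from -0.17 to 0.26. These intervals bound the size of a difference in each probe's ratio as corrected here, and do not show that the diets were alike.

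**Figure D3:**
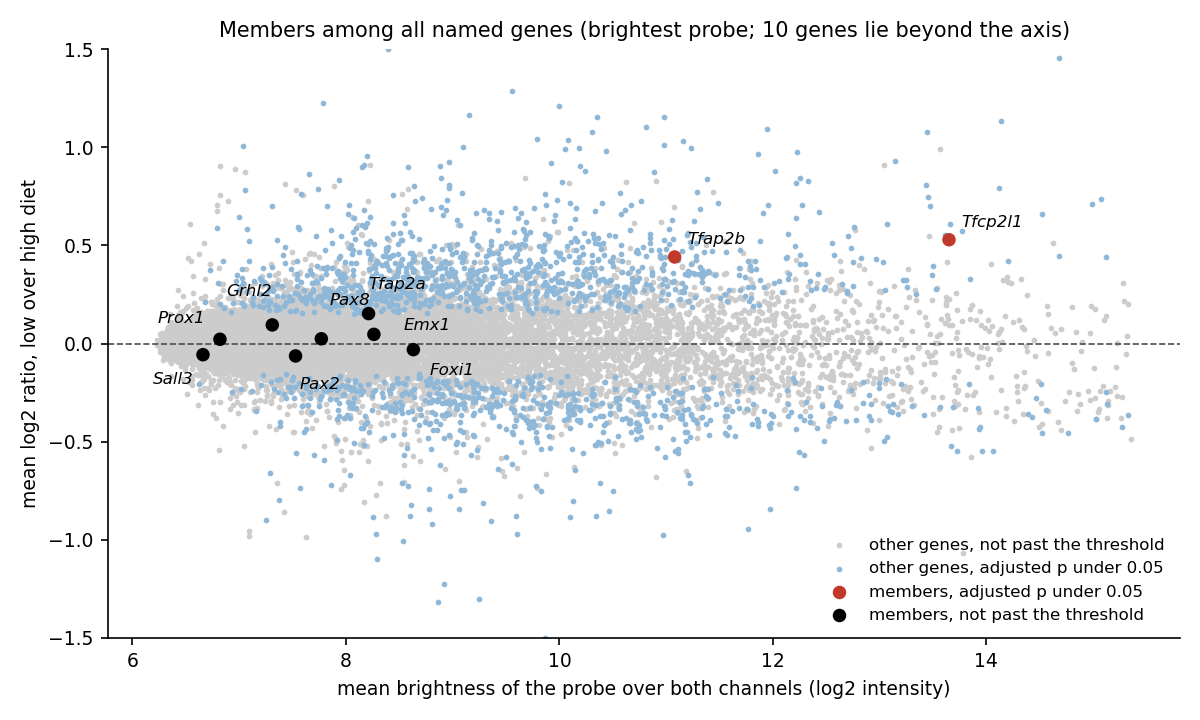
Mean log2 ratio of low over high diet (y axis) against mean brightness of the probe (x axis, log2 intensity) for the brightest probe of the named genes, with the 10 factors as large points. Tfcp2l1 and Tfap2b (red) are the 2 brightest members, and the 8 that did not pass (black) lie between -0.06 and 0.15.

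A wider list of 65 nephron transcription factors, of which 60 were measured, gave 6 that rose, 1 that fell and a median log2 ratio of 0.0066. Of all named genes 7.82% passed in either direction, and calls were concentrated among bright probes. Sox9, a factor of progenitors and tubule repair, went furthest, at 1.82, 2.03, 1.86 and 2.82 in the 4 pairs. Esrrb, an orphan nuclear receptor, rose by 0.55 ± 0.18, Klf15, a Kruppel-like factor, by 0.45 ± 0.16, and Rbpj, the DNA-binding partner of Notch, by 0.42 ± 0.08 (SD, n = 4 each). Sall1, Grhl1 and Sall4, above, make up the 7. Dimmer probes of Esrrb (0.06) and Rbpj (-0.04) did not pass. With 1 pair left out, 1 or 2 of the 60 passed. These were Sox9 and Rbpj without H3/L2, and Sox9 without H8/L8. Without H1/L1, and again without H7/L7, only Sim1 passed, which is not among the 7. Sox9 passed in 10 of 12 alternatives, Rbpj in 8, Esrrb, Sall1 and Klf15 in 7 each, Sall4 in 5, and Grhl1 in 4 of 11.

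Some factors of other segments differed more between pairs. Hnf4a, the nuclear receptor of the proximal tubule, had ratios of -1.03, -0.08, -0.48 and 0.03 (mean -0.39 ± 0.48, adjusted p = 0.312 in limma). The proximal tubule marker medians were -1.06, -0.14, -0.71 and -0.23 in the same pairs. The part of these markers in the ratios of Hnf4a was not tested. Maf, a leucine zipper factor, had -0.82, -0.04, -0.90 and -0.14. Gata3, a factor of the collecting duct, had -0.28, -0.15, 0.52 and 0.37, a difference by dye orientation. Sim1 had a mean of 0.83 ± 0.44, above 0 in 4 of 4 pairs, and missed the threshold (adjusted p = 0.0534 in limma). It passed in several alternatives, with an adjusted p in limma of 0.0297 with median centring and 0.0442 with the authors' processed values. With plain background subtraction it did not pass.

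**Figure D4:**
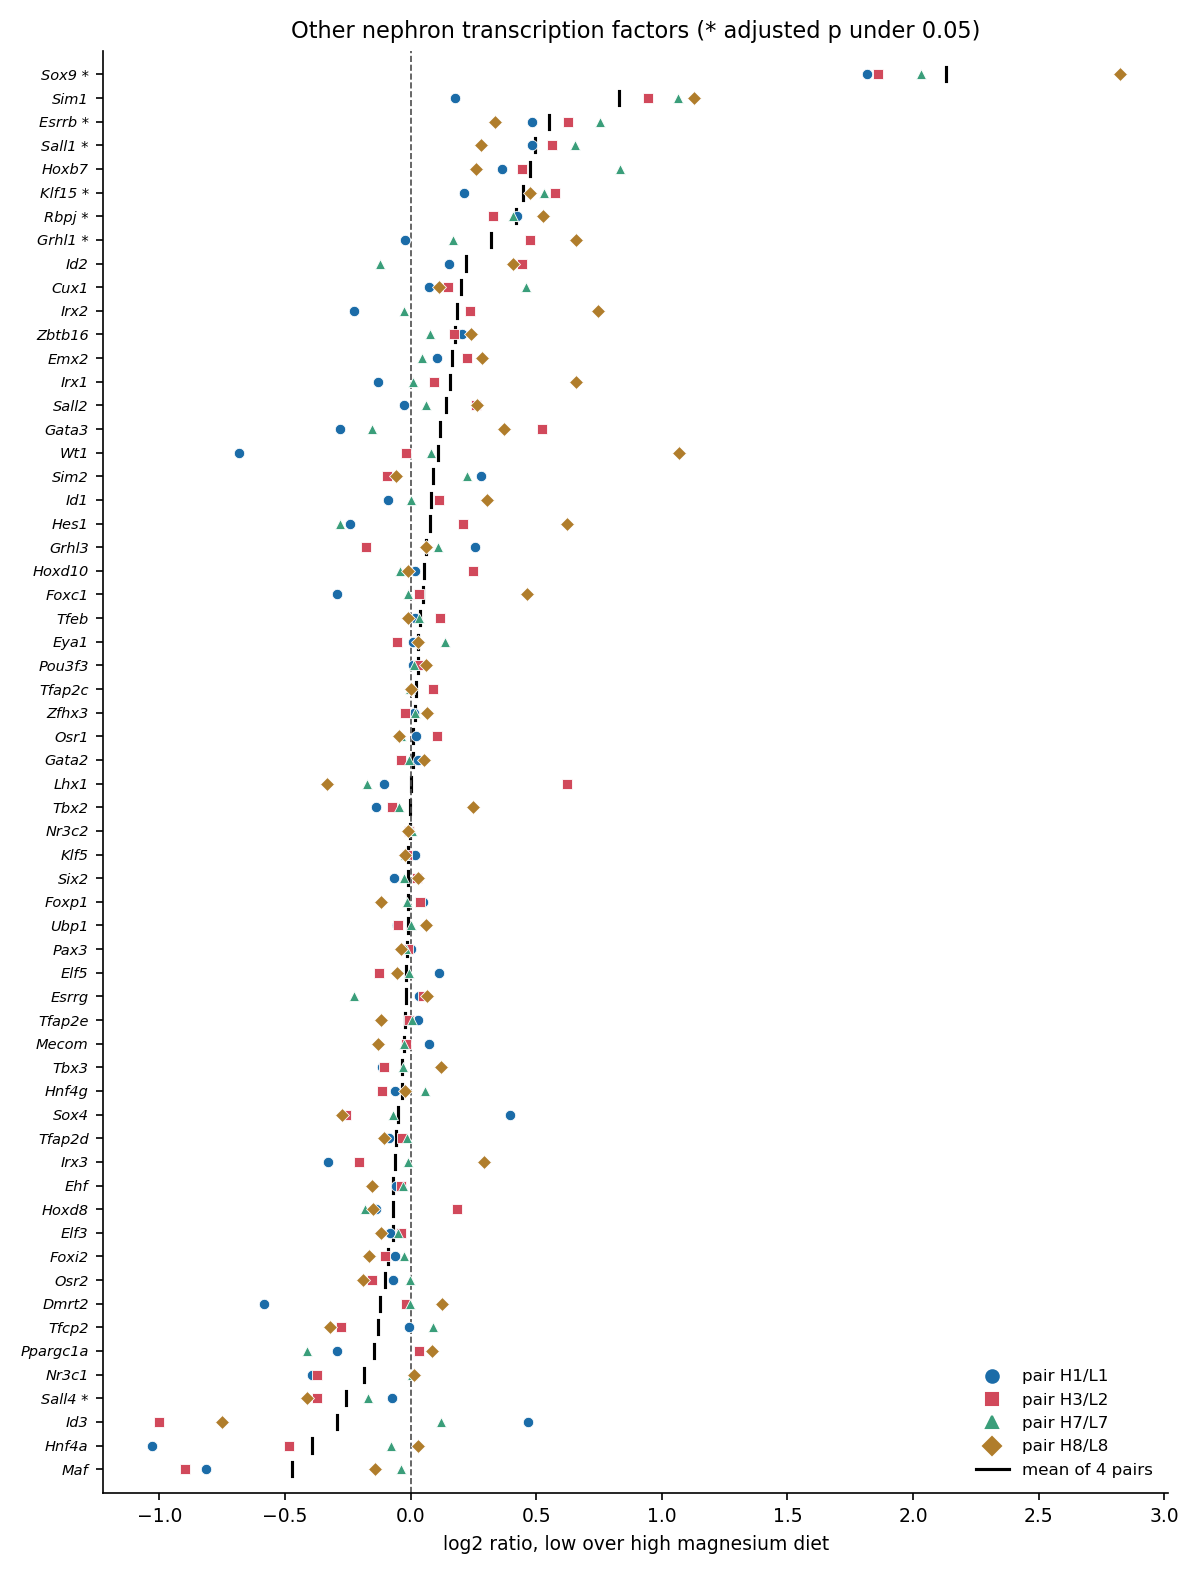
Log2 ratio of low over high diet (x axis) in the 4 pairs (points, with ticks for their mean) for the 60 measured genes of the wider list (rows). The 7 genes with a star passed the threshold, Sox9 stands at 1.82 or more in every pair, and Hnf4a, Maf, Wt1 and Id3 spread widely.

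The genes with ratios most like those of a risen factor had the smallest root mean square difference over the 4 pairs, among 16083 other genes above background in all samples. For Tfap2b these were Ogfrl1, Tmem50b and Epcam, an epithelial adhesion molecule, at 0.0256, 0.0268 and 0.0412 log2 units. For Tfcp2l1 they were Camta1, Rwdd4a and Actr3, an actin-nucleating subunit, at 0.0760, 0.0769 and 0.0848. A likeness over 4 pairs is a description of these arrays.

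Detection followed the dye. Low-diet samples were above background at 97.4% and 95.02% of probes in Cy5 (L1 and L7) and at 81.1% and 65.5% in Cy3 (L2 and L8). High-diet samples stood at 92.6% and 96.2% in Cy5 (H3 and H8) and at 85.1% and 85.7% in Cy3 (H1 and H7). Of the 15 member probes, 12 were above background in all 8 samples and 0 had a saturated spot.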

How the data were processed

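Members and gene lists were chosen with earlier results of these data known. The deposited scans hold linear intensities of signal and local background for each spot, per the file headers. The authors' value table holds log2 ratios of channel 1 over channel 2, which were matched to the scans (r 0.747 to 0.825 over spots with net intensity over 500, column medians -0.0040 to 0.0048), by a normalization that stays unknown. The authors' deposited table holds an averaged log2 ratio and the p-value of a maanova test, per the file headers, with no statement of any adjustment.

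Channel 1 was Cy5, per the labels. Background was corrected by normexp (offset 50) and arrays were normalized by loess, with 5791 control spots at weight 0. The sign was set to low over high diet and ratios were fitted by limma 3.58.1 (R 4.3.3, statmod 1.5.0) with diet and dye terms, 2 residual and 2.68 prior degrees of freedom, 2-sided. Printed SDs are over the 4 ratios and include the dye component. Levels are per channel after loess and Aquantile, and a summed level is the log2 of a list's sum. The brightest probe stood for a gene. Above background means over the 99th percentile of a dim control (604 spots) in that channel, and saturated a median of 65000 or more. Symbols were updated through the RefSeq gene table. The text describes every member probe, the called genes of the lists and the 3 genes most like each called member; other genes were named after their values were seen. The number of arrays limits the precision.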

Additional observations from a re-analysis of the deposited data

Results flagged for a closer look

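The log2 ratio of the bright Tfcp2l1 probe in H8/L8, at 0.19, stood apart from the other 3 pairs, at 0.61 to 0.70. Its gap to the nearest of them was 83.8% of the whole range, above the 82.9% set for 4 values by Dixon's test. Of 36 probes tested in this way, 15 of them member probes, it was the only 1 past that limit, and chance alone passes about 1 in 20. Without H8/L8 the mean was 0.64 (adjusted p = 0.0461 in limma). In the authors' processed values the same probe had 0.38 in H8/L8 and 0.57 to 0.79 in the other 3 pairs. How far H8/L8 stood apart thus depended on the processing, and Dixon's test was not run on those values. L8 was also the sample with the highest background limit, at 52.0 where the other Cy3 channels had 13.14 to 15.98, and whether this bears on the value was not tested.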

How the results depend on the processing

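Of the alternatives, plain background subtraction passed 0 member probes and 0 member genes, 220 probes of the array, 1 of the wider factor list and 7 segment markers, where the reported counts are 2, 2, 2296, 7 and 14. A fit with no dye term passed 1 member probe, 1 member gene, 824 probes and 7 segment markers. The mean over a gene's probes passed 1 member gene. Median centring and the robust trended prior each passed 11 of the wider list. Leaving out each pair in turn passed 0 to 2 member probes and 0 to 2 member genes, 83 to 863 probes, 1 to 2 of the wider list and 4 to 11 segment markers. Tfcp2l1 missed the threshold at 0.57 with plain subtraction (adjusted p = 0.0642), at 0.53 with no dye term (0.0590) and at 0.29 as the mean of its probes (0.0560), and ranged from 0.42 to 0.64 with a pair left out. Tfap2b missed it at 0.47 with plain subtraction (adjusted p = 0.0771), and ranged from 0.35 to 0.53 with a pair left out. Over 12 alternatives Tfcp2l1 passed in 7 (adjusted p 0.0206 to 0.121) and Tfap2b in 9 (0.0227 to 0.120), all above 0. Among members not called, the sign turned for Foxi1 with median centring (0.00815), for the middle Pax2 probe with plain subtraction (-0.0044) and the authors' processed values (-0.027), and for the dimmest Pax2 probe with plain subtraction (-0.10). With a pair left out it turned for Emx1 (-0.043 to 0.14), Foxi1 (-0.13 to 0.071), the middle Pax2 probe (-0.062 to 0.074), the dimmest Pax2 probe (-0.0033 to 0.036), Pax8 (-0.027 to 0.076) and Sall3 (-0.15 to 0.033). The cause was not tested, beyond the fewer pairs fitted. Each array's ratio is already a paired value of littermates, so no further block was fitted.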
